A study of Mus musculus with 15 samples.

Results

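The Dlk1 to Mirg locus is an imprinted stretch of mouse chromosome 12 that holds 4 transcribed genes in a row on the plus strand, namely Dlk1, Meg3, Rian and Mirg. Its members here are 4 windows of the mm9 build in which tags of an Mbnl3 crosslinking experiment were counted, out of 71643 windows and 10 kb bins of either strand that held a forelimb tag. The locus was picked from earlier results of these data, in which it held forelimb tags and next to none of a muscle cell line, so those levels are a description only. The counting rule uses no genotype. The gene names of the windows are those of the rule, and RefSeq has the 4 genes in the same order on that chromosome.

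In HITS-CLIP, RNA is crosslinked to protein with ultraviolet light, precipitated with an antibody to the protein, and sequenced as short tags. The protein was Mbnl3, a muscleblind protein, a family that binds RNA and regulates splicing. The forelimbs came from BL6 mouse embryos 15 days after conception, either wild-type (WT) or carrying the Mbnl3 ΔE2 allele (ΔE2/ΔE2). Each genotype had 3 libraries, with 4 forelimbs from 2 embryos pooled in each. The third material was C2C12, an established mouse myoblast line grown in 20% serum, with 5 plates per replicate and all replicates combined by the authors into a single set. The ΔE2 samples are titled Mbnl3 KO, and the sources used here do not say which protein or fragment their tags were crosslinked to. RNA-seq of forelimbs of the same genotypes was deposited as a table of cassette exons, although a header of that table names Mbnl2, another muscleblind gene, for the mutant column.

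Dlk1 and Meg3 are the best known genes of this domain. Dlk1 is read from the paternal chromosome and encodes a membrane protein with EGF-like repeats, related to the Notch ligands, which holds back the differentiation of fat cell precursors and is made in embryonic muscle and cartilage. Meg3, Rian and Mirg are read from the maternal chromosome as long RNAs that encode no protein, and Rian and Mirg host small nucleolar RNAs and microRNAs. Overgrowth of muscle in callipyge sheep maps to the same domain.

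Library depth was 35413, 74123 and 124309 tags for WT and 67279, 40531 and 59115 for ΔE2. Tags of ΔE2 replicates 2 and 3 coincided in position, strand and barcode for 33916 molecules, so the pair entered every comparison as a single joined library (65730 tags), leaving 2 ΔE2 libraries against 3 of WT. In the locus they shared 18 molecules in the Dlk1 window and 25 in the Meg3 window. Of the tags of ΔE2 replicate 3, those read in lane 7 were shared with replicate 2 in 67.3% of cases and those of lane 8 in 19.8%. Pairs of WT libraries shared between 8.93% and 32.4% of a library's tags, and were kept apart. The combined C2C12 set held 550124 distinct tags, several times the depth of any forelimb library. Tags were also counted in the spans that the exon table lists, which need not cover a whole gene, so these are not counts of whole genes. They are raw tags, not scaled to depth, so the WT and C2C12 counts below cannot be compared as levels. That of the cartilage collagen gene Col2a1 (chromosome 15, 97829706 to 97835074) held 2, 7 and 11 in the WT libraries and 1 in C2C12. The spans of other cartilage genes held few or none, with 1, 0 and 2 at Acan and 0 in every WT library at Col11a2, and that of the muscle gene Dysf held 0, 1 and 0 in WT and 2 in C2C12. The span of the muscleblind gene Mbnl1 held 8, 17 and 31 in WT and 272 in C2C12. That of Fgfr2, taken as an epithelial gene, held 3, 13 and 17 in WT and 0 in C2C12. The defining sarcomere genes Neb and Ttn are not in that table, so muscle was not checked by them.

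Between these genes lie many small RNAs, and sequences are shown here because forelimb tags also lay in the stretches that code for them. In RefSeq (GRCm38.p6), 60 microRNA genes and 19 small nucleolar RNA genes lie in or between the 4 genes, with 15 microRNA genes between Meg3 and Rian and 30 between Rian and Mirg. Their 105 distinct mature sequences of the plus strand have 97 different seeds, the bases 2 to 8 that pair with a target, and 8 seeds are shared by 2 different sequences. Below, the seed is in capitals and each sequence runs 5′ to 3′. The first set comes from between Meg3 and Rian, where several microRNAs lie opposite Rtl1, a gene of the other strand whose RNA they match.
miR-127-3p: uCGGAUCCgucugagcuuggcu
miR-431-5p: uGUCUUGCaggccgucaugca
miR-433-3p: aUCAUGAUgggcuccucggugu
miR-136-5p: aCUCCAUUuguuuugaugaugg
The second set pairs microRNAs of the locus that share a seed, first those of Rian and of the stretch between Rian and Mirg, then those that reach into Mirg, leaving out 2 forms of miR-3070.
miR-370-5p: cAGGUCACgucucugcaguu
miR-1193-3p: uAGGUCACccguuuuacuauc
miR-379-5p: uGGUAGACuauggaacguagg
miR-1193-5p: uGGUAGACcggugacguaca
miR-379-3p: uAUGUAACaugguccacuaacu
miR-411-3p: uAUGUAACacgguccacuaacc
miR-758-5p: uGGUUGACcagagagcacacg
miR-1197-5p: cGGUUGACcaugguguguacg
miR-376b-5p: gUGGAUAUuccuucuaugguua
miR-376c-5p: gUGGAUAUuccuucuauguuua
miR-494-5p: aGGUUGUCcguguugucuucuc
miR-410-5p: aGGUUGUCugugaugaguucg
miR-453: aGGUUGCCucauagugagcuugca
miR-496a-5p: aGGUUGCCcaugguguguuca
The tags are given in mm9 and these genes in another build, so no tag was assigned to a microRNA.

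The first question was where along the locus Mbnl3 tags lay in the forelimb. The 6 forelimb libraries as labelled held 1520 tags on the plus strand of the 300 kb, against 7 on the minus strand. Thus 99.5% followed the strand of the 4 genes. A molecule shared between libraries counts in each of them here. ΔE2 replicates 2 and 3 gave 100 and 146 of these tags, and 160 when joined. Of the plus-strand tags, 1109 lay in the 4 windows and 411 between them. The stretch of 77.6 kb between Dlk1 and Meg3 held no forelimb tag in any library, a count of 0 that allows at most 24.1 tags per 1000000 tags (CPM) in the deepest library, WT replicate 3. Tags were thus in 2 blocks, a short one at Dlk1 and a long one that began at Meg3 and ran through Rian to Mirg.

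**Figure D1:**
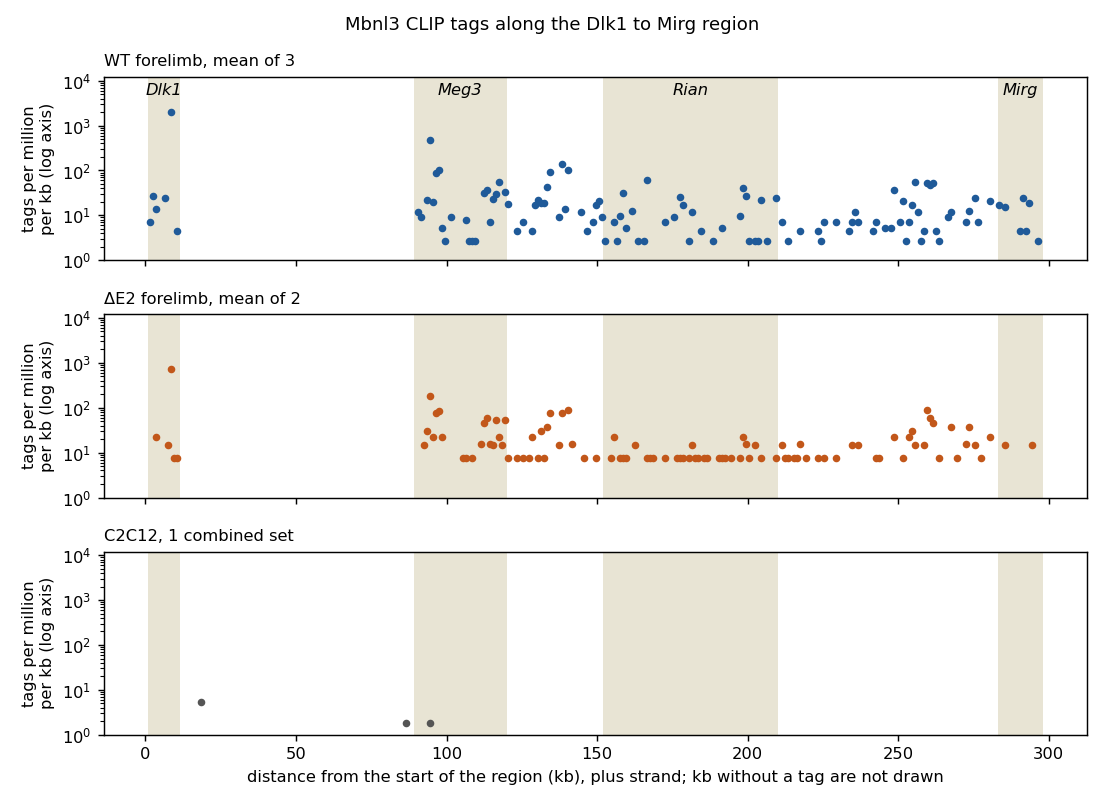
Tags per 1000000 tags (CPM) per kb (log axis) on the plus strand against the distance in kb from the start of the region, for the mean of 3 WT libraries, the mean of 2 ΔE2 libraries and the C2C12 set, with the 4 windows shaded. A single kb in Dlk1 stands above all others, no forelimb tag lies between Dlk1 and Meg3, and C2C12 shows 5 tags in 3 of the kb.

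At Dlk1 (chromosome 12, 110691000 to 110701600), tags were gathered in a small spot. Of the 480 WT tags of the window, 457 (95.2%) lay within 411 nt, and 426 lay in a single cluster of 202 nt from 110698609 to 110698810. That cluster was the 11th by WT tags of 191766 forelimb clusters. It held 69, 141 and 216 tags in the WT libraries, or 89.9% ± 3.12 of the tags of the Dlk1 window (SD, n = 3). In ΔE2 it held 58 and 33 tags, with the joined replicates 2 and 3 as the second value. Within it the tags formed 2 summits 81 nt apart, at 110698667 and 110698748, separated by a trough at which WT coverage dropped to 20.6 CPM. The first summit took 59.4%, 60.3% and 56.9% of the cluster's tags across WT and 56.9% and 57.6% across ΔE2, so the shape was much alike in every library while the height differed. WT coverage reached 939.6 CPM at the first summit and 655 at the second. The files name no exon here, and no mm9 annotation was used, so the spot is given by position only.

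At Meg3 (110779200 to 110810000) tags were spread more widely. The densest kb held 99 of the 218 WT tags, and 21 of 31 kb held at least 1. Its densest cluster, from 110784648 to 110784946, held 20, 23 and 45 tags in WT and 14 and 5 in ΔE2, which is 40.4% of the WT tags of the window and 19 of its 100 ΔE2 tags. Another 5 Meg3 clusters had 10 or more tags over the 5 libraries. The most populated of these, from 110787223 to 110787373 and from 110786670 to 110786823, held 29 and 25 tags. The other 3, starting at 110784463, 110802916 and 110809019, held 12, 15 and 10.

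Rian (110842100 to 110900000) and Mirg (110973000 to 110988000) had no cluster of 10 tags. In Rian, the host of a row of small nucleolar RNAs, 84 WT tags were scattered over 28 of 58 kb, with at most 14 in any kb. In Mirg, whose RNA hosts microRNAs, 21 WT tags fell in 7 of 15 kb. The WT tags of Rian in each library started at as many different bases as there were tags (15, 18 and 51), whereas the Dlk1 tags started at 47, 76 and 97 bases for 74, 158 and 248 tags. The windows differ in length and in how far their tags gather, so these counts of starts describe each window alone.

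Between the genes, tags formed small clusters as well. Between Meg3 and Rian, where miR-127 and its neighbours are coded, 127 WT tags included 3 clusters of 10 or more tags, starting at 110824099, 110828039 and 110830926 and 64 to 95 nt long. They held 28, 31 and 35 tags over the 5 libraries. Between Rian and Mirg, the stretch of miR-379 and its neighbours, lay 121 WT tags. This stretch had 3 clusters of 53 to 70 nt with 10 to 13 tags each over the 5 libraries, but each held fewer than 10 WT tags. The cluster from 110949763 held 0, 2 and 1 tags in WT and 5 and 2 in ΔE2. That from 110950855 held 0, 4 and 5 in WT, and that from 110951556 held 1, 2 and 4. In ΔE2 these last clusters held 4 tags each in replicate 1 and 0 in the joined library. The window borders cut through few tags, counted over the 6 libraries as labelled. The last kb inside the Meg3 window held 17 forelimb tags and the kb after it 4. In the last kb inside Rian lay 7, with none in the kb after it. At Dlk1 and Mirg, the kb on either side of the window held none.

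**Figure D2:**
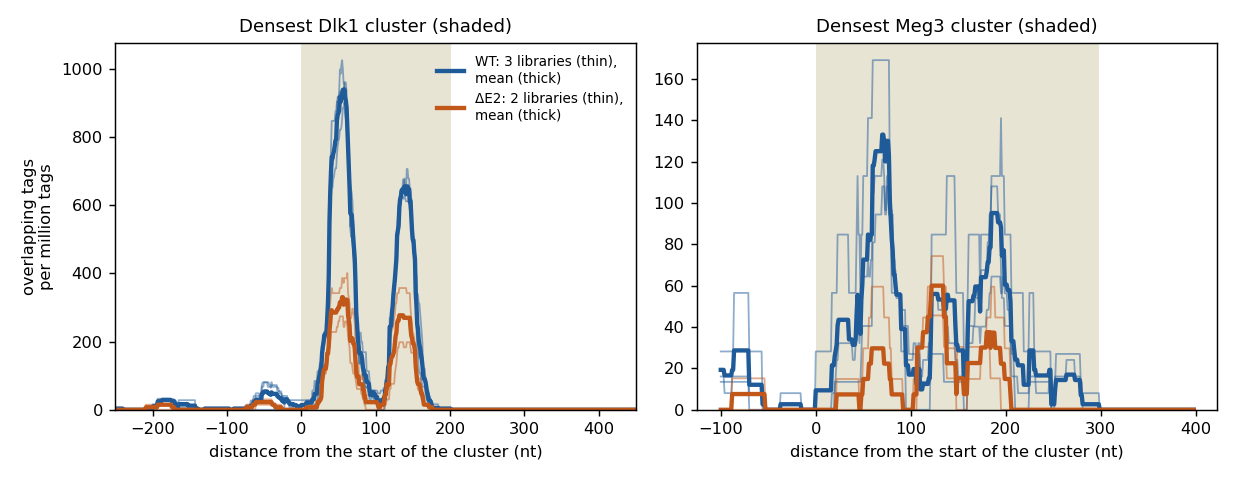
Number of overlapping CPM at each base against the distance in nt from the start of the densest Dlk1 cluster (left) and the densest Meg3 cluster (right), for single libraries (thin) and genotype means (thick). The Dlk1 cluster has 2 summits in every library, lower in both ΔE2 libraries, and the Meg3 cluster is broader and built from few tags.

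The second question was how the levels compared between forelimb and C2C12, which is the contrast the windows were chosen on and is given without a test. Dlk1 had no tag in C2C12, which allows at most 5.45 CPM, against 2053 CPM over the pooled WT libraries, at least 376-fold higher. Rian and Mirg also had no C2C12 tag, against 359 and 89.8 CPM in WT, at least 65.9-fold and at least 16.5-fold higher. The floor of 3 counts was taken over the whole C2C12 set. Meg3 had 1 C2C12 tag, at 110784065 to 110784094, a ratio of WT over C2C12 of 513 with an exact 95% counting interval from 91.1 to 20348. These intervals and limits cover counting error only. The sets also differed in tag length, from 26 to 30 nt in C2C12 and from 19 to 38 nt in the forelimb libraries. With forelimb tags of 26 to 30 nt only, WT had 3514 CPM in the 4 windows, against 3496 with all lengths. Other differences in preparation were not tested.

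The other plus-strand C2C12 tags of the region lay where the forelimb had none. Of the 4 between Dlk1 and Meg3, 3 overlapped near 110708257 and 1 lay at 110776205. The minus strand of the region held 7 C2C12 tags, more than the 5 on the plus strand, so those of the plus strand did not exceed the strand that the genes do not use. In bulk samples, fewer cells with a transcript, less RNA per cell and less binding per RNA cannot be told apart, and transcript levels of the 4 genes were not analysed here. None of the 9 listed genes of the locus, 21 other imprinted genes or 20 Notch pathway genes is among the 84 genes of the authors' deposited table of cassette exons. That table is short, with 98 events, so their absence is no result about these genes.

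In CPM, the WT order was Dlk1, Meg3, Rian, Mirg. Dlk1 had 2072 ± 70.0, Meg3 979 ± 218, Rian 359 ± 101 and Mirg 86.1 ± 32.8 CPM (SD, n = 3). No pair of neighbours in this order overlapped between WT libraries. Per kb of window the order changed at its lower end. Dlk1 had 188 to 201 CPM per kb in the WT libraries and Meg3 25.4 to 39.4, while Rian, at 4.19 to 7.32, and Mirg, at 3.76 to 8.09, overlapped. By WT tags, Dlk1 was the 12th of all 71643 windows and bins, Meg3 the 45th, Rian the 165th and Mirg the 1273rd. These ranks are of raw tags and set windows of 10.6, 30.8, 57.9 and 15.0 kb against bins of 10 kb, so the longer windows gain by their length.

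**Figure D3:**
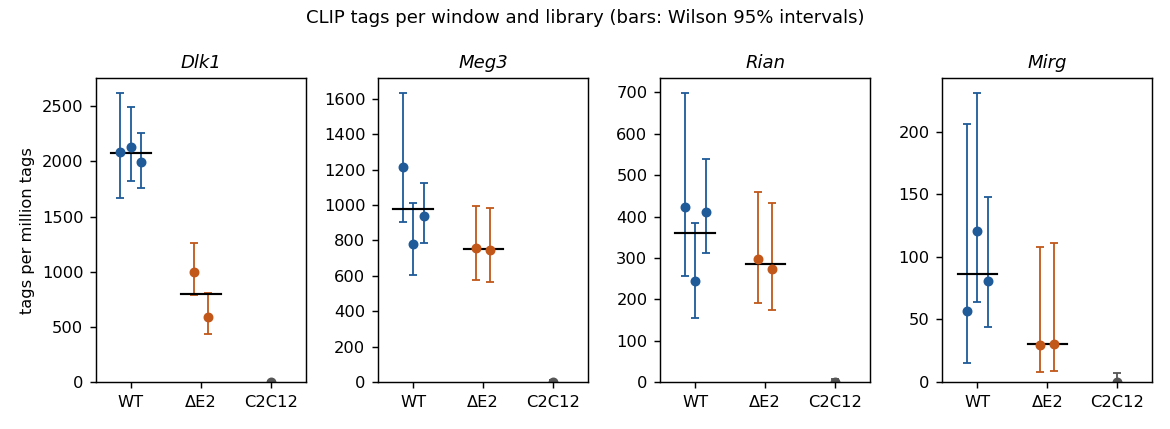
CPM for each window, with a point for each of 3 WT libraries, 2 ΔE2 libraries (replicates 2 and 3 joined) and the C2C12 set, Wilson 95% intervals as bars and genotype means as lines. The WT points of Dlk1 lie between 1995 and 2132 and the ΔE2 points at 593 and 996, while the genotypes are close at Meg3 and overlap at Rian.

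The third question was whether tags of the locus differed between ΔE2 and WT forelimbs. The counting rule used no genotype, but the locus was picked with earlier results of these data known. The choice can therefore not be shown to be independent of this contrast. Tags at Dlk1 were lower in ΔE2 and those at Meg3 and Rian did not pass the test. Dlk1 held 74, 158 and 248 tags in WT replicates 1, 2 and 3, which is 2089.6, 2132 and 1995 CPM. It held 67 tags in ΔE2 replicate 1 and 39 in the joined replicates 2 and 3, which is 996 and 593 CPM. The joined library comes from 26 tags in replicate 2 and 31 in replicate 3. All WT libraries were above both ΔE2 libraries, with means of 2072 ± 70.0 (SD, n = 3) and 795 ± 285 (SD, n = 2). On the scale of library size, which CPM use, the median tested feature was itself lower in ΔE2, at a log2 fold of -0.53. The share of all features without overlap was not counted, so a lack of overlap in CPM, here and below, is a description only. In the fit of all windows and bins, ΔE2 over WT gave a log2 fold of -0.89 (standard error, SE, 0.26), or 1.85-fold lower in ΔE2 (edgeR quasi-likelihood test, Benjamini-Hochberg adjusted p = 0.0424).

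Of 731 windows and bins tested, 63 (8.62%) were called, 52 higher in ΔE2 (7.11%) and 11 lower (1.50%). Of the 4 windows counted, 3 passed the filter on low counts and 1 of these was called, lower in ΔE2. The value depends on the scale. TMM scaling put the median of all tested features at -0.02, and library size in place of TMM put it at -0.53 and Dlk1 at -1.38, still called (adjusted p = 0.00377). The call was close to its threshold. It was lost without WT replicate 2 (edgeR adjusted p = 0.165), without WT replicate 3 (0.108), without ΔE2 replicate 1 (0.107) or without ΔE2 replicate 3 (0.0854). It was also lost with WT replicates 2 and 3 joined, as ΔE2 replicates 2 and 3 were (0.119), and with DESeq2 in place of edgeR (0.125). In all 19 alternatives the log2 fold stayed below 0, from -1.45 to -0.32.

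**Figure D4:**
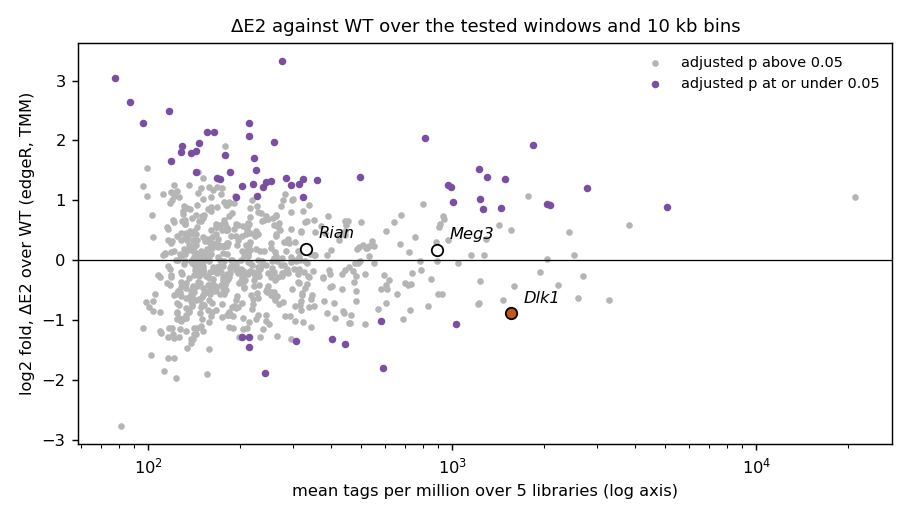
Log2 fold of ΔE2 over WT (edgeR, TMM) against mean CPM over 5 libraries (log axis) for the 731 tested windows and 10 kb bins, coloured by whether the adjusted p was at or under 0.05. Dlk1 (filled) lies at -0.89 among the features with many tags, and Meg3 and Rian (open) lie at 0.17 and 0.19.

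Most Dlk1 tags lay in the densest cluster, which was tested by itself. Its log2 fold was -0.93 (SE 0.29; edgeR adjusted p = 0.0416), in a fit in which 62 of 276 clusters (22.5%) passed the threshold, with 18 (6.52%) below WT and 44 (15.9%) above it. The call was lost in 8 of 17 alternatives, among them without WT replicate 2 (edgeR adjusted p = 0.116), WT replicate 3 (0.0872), ΔE2 replicate 1 (0.0902) or ΔE2 replicate 3 (0.0532), with WT replicates 2 and 3 joined (0.109) and with DESeq2 (0.0933). The cluster holds most tags of the window, so it is no separate support for it. WT libraries had 1863 ± 111 CPM there (SD, n = 3), ΔE2 libraries 682 ± 255 (SD, n = 2). Both summits were lower by a like factor in CPM, 2.82 for the first and 2.62 for the second, described with no test. Outside that cluster, few Dlk1 tags were left, with 5, 17 and 32 in WT and 9 and 6 in ΔE2.

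Counting tags with the same 5′ end once brought the Dlk1 window to a log2 fold of -0.32 (edgeR adjusted p = 0.459) and the cluster to -0.31 (0.368). In the cluster each distinct 5′ end carried 1.64, 2.35 and 3.09 tags across WT and 1.61 and 1.32 across ΔE2. The first value of each genotype was alike, and the cause of the smaller fold was not tested. Counting tags of the same start and end once left the window at -0.88 (adjusted p = 0.0224).

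Tags of exactly 35 nt were the most frequent in every forelimb library. No source used here gives the read length, so 35 nt may be where reads end and not the length of the RNA. Their share was 39.2%, 40.5% and 39.5% in the WT libraries at Dlk1, and 59.7% and 71.8% in the ΔE2 libraries. Over all tags it was 45.1% ± 4.99 for WT (SD, n = 3), against 52.4% ± 6.47 for ΔE2 (SD, n = 2), and at Meg3 the genotypes overlapped. Without tags of 35 nt, a choice made after seeing the data, the log2 fold at Dlk1 was -1.40 (edgeR adjusted p = 0.00392), so it was larger without them. Reads per tag in the window also differed, from 19.1 to 140.3 in WT and from 107 to 1179 in the ΔE2 libraries as labelled. This was not particular to Dlk1. Over all tags of a library they were 71.7, 91.6 and 61.8 in WT and 96.4, 267 and 428 in ΔE2. The part of reads per tag in the result was not tested.

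**Figure D5:**
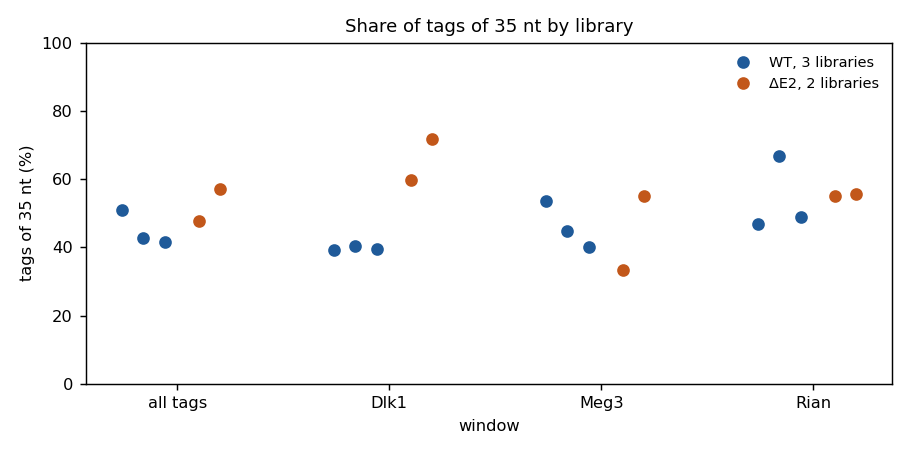
Percent of tags that were 35 nt long, for all tags and for the Dlk1, Meg3 and Rian windows, with a point for each of 3 WT and 2 ΔE2 libraries. At Dlk1 the WT libraries lie between 39.2% and 40.5% and the ΔE2 libraries at 59.7% and 71.8%, while the genotypes overlap in the other 3 columns.

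Meg3 held 43, 58 and 117 tags in WT, or 1214, 782 and 941 CPM, and 51 and 49 in ΔE2, or 758 and 745 CPM. The ΔE2 libraries lay just below the lowest WT library. Its log2 fold was 0.17 (SE 0.26; edgeR adjusted p = 0.716), which leaves an approximate 95% interval from -0.34 to 0.68, and the sign turned on the scale of library size, at -0.35. The densest Meg3 cluster and the rest of its window had differing values, and the difference between them was not tested. In the cluster the WT level was 412 ± 134 CPM (SD, n = 3) and that of ΔE2 142 ± 93.4 (SD, n = 2), with no overlap. The log2 fold, -0.94 (SE 0.40), did not pass the test (edgeR adjusted p = 0.120). It passed with library size (-1.45, adjusted p = 0.0274) and with the 6 libraries as labelled (-1.19, adjusted p = 0.0249), and was at -0.22 without tags of 35 nt, which left 54 WT and 15 ΔE2 tags. The Meg3 tags outside it stood at 567 ± 89.3 CPM for WT (SD, n = 3), and at 609.7 ± 84.5 for ΔE2 (SD, n = 2).

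Rian held 15, 18 and 51 tags in WT, or 424, 243 and 410.3 CPM, and 20 and 18 in ΔE2, or 297 and 274 CPM. The genotypes overlapped, and the log2 fold was 0.19 (SE 0.31; edgeR adjusted p = 0.734), an approximate 95% interval from -0.42 to 0.80. On the scale of library size it was -0.32. Without WT replicate 2, which had the lowest level, it was -0.02.

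Mirg held 2, 9 and 10 tags in WT and 2 in each of the ΔE2 libraries, and did not pass the filter on low counts. In CPM the WT libraries had 56.5, 121 and 80.4 and the ΔE2 libraries 29.7 and 30.4, with no overlap, but each Wilson 95% interval of a ΔE2 library reached past 100, to 108 and 111. A difference at Mirg was not tested.

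The stretches between the genes gave 3 tested bins, none of them called. The bin from 110820001 to 110830000, between Meg3 and Rian, had 14, 31 and 32 tags in WT and 22 and 11 in ΔE2 (log2 fold 0.05, SE 0.34). The bins from 110940001 and from 110950001, between Rian and Mirg, had log2 folds of 0.52 and 0.70 with SEs of 0.43 and 0.44 (edgeR adjusted p = 0.454 and 0.318). In CPM, the stretch between Rian and Mirg had 506 ± 174 for WT (SD, n = 3), and 592 ± 214 for ΔE2 (SD, n = 2). From Meg3 on, none of the 2 windows, 3 bins and 1 cluster tested was called by edgeR in the fits as reported. Over all tested features, 8.62% of windows and bins and 22.5% of clusters were called, so none among so few says little.

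The make-up of the locus, which does not depend on the scaling between libraries, was compared directly. Dlk1 took 55.2%, 65.0% and 58.2% of the tags in the 4 windows in the WT libraries, with Wilson 95% intervals from 46.8% to 63.4%, from 58.8% to 70.7% and from 53.5% to 62.8%. It took 47.9% in ΔE2 replicate 1 (39.8% to 56.1%) and 36.1% in the joined replicates (27.7% to 45.5%). Both ΔE2 shares were below every WT share. The mean went from 59.5% ± 5.02 (SD, n = 3) to 42.0% ± 8.31 (SD, n = 2), a difference of -17.5 percentage points. The two-sided exact permutation test gave p = 0.100, the smallest that 3 against 2 libraries allow, so this design cannot pass 0.05. Meg3 made up 27.8% ± 4.12 of these tags for WT (SD, n = 3), against 40.9% ± 6.32 for ΔE2 (SD, n = 2), and Rian 10.2% ± 2.44 and 15.5% ± 1.68.

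Features elsewhere with the pattern most like that of Dlk1 were sought among 376 bins with at least 50 WT tags, by the distance of their centred log2 CPM over the 3 WT, the 2 ΔE2 and the C2C12 libraries. The 3 nearest were all on the minus strand of chromosome 15, from 101520001, 101680001 and 101670001, at distances of 0.54, 0.83 and 1.06. None of them had a C2C12 tag, which held for only 37 of the 376 bins. The C2C12 value is part of the distance, so it narrows the choice. The nearest of these had 70, 111 and 162 tags in WT and 56 and 34 in ΔE2. For Meg3 and Rian the nearest and second nearest were the same bins, and these also had no C2C12 tag. They lay on the minus strand of chromosome 11 from 116080001 and on the plus strand of chromosome 4 from 97780001. For Mirg, with few tags, the nearest bin was at a distance of 1.09, on the minus strand of chromosome 11 from 72260001.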

How the data were processed

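CLIP tags of 3 WT and 3 ΔE2 forelimb libraries and 1 combined C2C12 set, deposited as genome intervals, were analysed. Per the submitters' processing notes, the authors aligned them to mm9 using Novoalign. No source used here gives its version. The deposited score column was not used, since no source says what it holds. The RNA-seq table of exons gives estimated counts as group totals, per the file headers, and was used for gene names and spans only. Its reads were aligned by Bowtie and TopHat 1.3.2, per the submitters' processing notes.

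Each tag was counted once per position, strand and 5-base barcode, in the window or 10 kb bin of its midpoint, and in clusters of tags overlapping by at least 1 nt. Positions are counted from 1. CPM are tags scaled to 1000000 tags of the library. The quasi-likelihood test of edgeR 4.0.16 (R 4.3.3) was run on the counts of the whole table after filterByExpr (minimum 10) and TMM scaling over the tested features. Features with a Benjamini-Hochberg adjusted p no higher than 0.05 were called. Standard errors are the log2 fold divided by the root of F. DESeq2 1.42.0 was an alternative. Tested features held 21.3% to 29.9% of a library's tags. Intervals are Wilson 95% unless named exact, and a count of 0 allows 3 counts. The fits were tested on simulated data. Other steps used Python 3.11.15 and scipy 1.17.1, and plots matplotlib 3.10.9.

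The members and gene lists were chosen with earlier results of these data known. Named are the 4 windows, clusters of at least 10 tags, and the 3 bins of most like pattern. Replicates are labelled as biological. RefSeq sequences were matched by gene order and name.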

Additional observations from a re-analysis of the deposited data

How the results depend on the processing

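The direction at Dlk1 held in all 19 alternatives, and the call in 10. The log2 fold lost the call at -0.88 with DESeq2, -1.45 with no filter on low counts, -0.32 with tags collapsed by 5′ end, -0.92 with WT replicates 2 and 3 joined and -0.82 with 5 kb bins, and ran from -1.14 to -0.83 with 1 library left out. Meg3 and Rian were never called, and each changed sign in 3 of 19: Meg3 with library size (-0.35), no filter (-0.43) and shared molecules given to the library with most reads (-0.03), Rian with library size (-0.32), no filter (-0.43) and without WT replicate 2 (-0.02). With 1 library left out, Meg3 ran from 0.03 to 0.31 and Rian from -0.02 to 0.36. The Dlk1 share kept its direction in all 10 alternatives, from -23.4 to -14.7 points with 1 library left out and -32.0 without 35-nt tags. The causes of these changes were not tested.

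Of all windows and bins, 63 were called, against 19 with DESeq2, 165 with library size (23 higher and 142 lower in ΔE2), 3 with no filter, 139 with 6 libraries, 7 with WT replicates 2 and 3 joined, 25 with shared molecules given to the library with most reads and 39 without 35-nt tags. With 1 library left out, edgeR called 0 to 67, and the 0, without WT replicate 3, went with 150 at an unadjusted p under 0.05. Of clusters, 62 were called, against 35 with DESeq2, 19 with no filter, 41 collapsed by 5′ end, 37 with shared molecules given to the library with most reads and 34 without 35-nt tags, and 16 to 90 with 1 library left out. With WT replicates 2 and 3 joined, edgeR called 0 clusters, with 72 at an unadjusted p under 0.05. DESeq2 was not run on these sets. Library size gave 22 clusters higher and 58 lower in ΔE2, against 44 and 18 with TMM.

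Deviations of same-numbered libraries from their genotype mean correlated at -0.171, -0.0827 and -0.151 over windows and bins, and at -0.318, -0.204 and -0.24 over clusters. Since ΔE2 replicates 2 and 3 share most molecules, these values cannot settle whether the replicate numbers pair the samples. With the 6 libraries as labelled and the replicate block, 115 windows and bins and 64 clusters were called, and Dlk1 was at -1.04 (edgeR adjusted p = 0.0174), Meg3 at 0.15 and Rian at 0.35. Depth limits Mirg and all but 2 of the 321 locus clusters, which did not pass the filter.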
